A study of Rattus norvegicus with 9 samples.

Results

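Transcripts of red blood cells were followed through 9 fetal rat lungs by means of 10 genes chosen by name: the haemoglobin chain genes Hba-a1, Hba-a2 and Hbb, the haem synthesis gene Alas2, the membrane genes Slc4a1, Epb42 and Ermap, and the red cell regulators Klf1, Gata1 and Hemgn. Of these, 9 had a row among the 17465 genes of the deposited table and passed the filter on low counts, and Ermap was not analysed here. All lungs were from Sprague-Dawley rats and formed 3 groups of 3 libraries: untreated control lungs, untreated hypoplastic lungs (small, underdeveloped lungs, here from oligohydramnios, a lack of amniotic fluid, per the series title) and hypoplastic lungs given AFSC-EV, extracellular vesicles of amniotic fluid stem cells. Frozen lungs were powdered and their total RNA was sequenced after removal of ribosomal RNA. The sources used here do not give fetal age, vesicle dose and route, litter, or whether the lungs were rinsed of blood. The 9 libraries are taken as separate lungs from their numbering, and the p-values measure only the spread between these libraries.

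Haemoglobin is a tetramer of alpha and beta chains, each carrying a haem group, and it fills the red cell. Alas2 encodes the erythroid form of the first enzyme of haem synthesis, Slc4a1 the anion exchanger band 3, which is the main protein of the red cell membrane, and Epb42 a protein that ties band 3 to the membrane skeleton. Gata1 and Klf1 encode the transcription factors that switch on globin, haem and membrane genes in red cell precursors, and Hemgn a nuclear protein of the same precursors. In the fetal rodent, red cells form mainly in the liver and reach the lung through the circulation, and immature red cells still hold these RNAs.

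The alpha chain genes and the other genes lie apart in the genome, yet they are switched on together in red cell precursors, so the stretch upstream of the start site is shown for the 3 globin genes and Alas2. The sequences are from the RefSeq table of build GRCr8, which holds such a window for 9 of the 10 genes, while the submitters' processing notes name build rn7. Each is the 150 bases just before the annotated start, 5′ to 3′ on the gene's strand. Capitals mark the motifs searched on both strands: CACACCC (the CACCC box, bound by KLF1), AGATAA (bound by GATA1), the CCAAT box, the TATA box as TATAAA, and its variant form as ATAAAA. Capitals that run on are motifs side by side or overlapping.
Hbb upstream stretch, chr1:167663722-167663871, minus strand: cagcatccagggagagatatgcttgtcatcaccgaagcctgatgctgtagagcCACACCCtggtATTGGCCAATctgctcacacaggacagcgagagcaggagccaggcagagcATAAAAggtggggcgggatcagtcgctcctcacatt
Hba-a1 upstream stretch, chr10:15842581-15842730, minus strand: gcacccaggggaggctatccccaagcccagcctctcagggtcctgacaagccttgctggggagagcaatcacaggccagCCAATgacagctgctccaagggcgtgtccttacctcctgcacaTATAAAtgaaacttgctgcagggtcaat
Hba-a2 upstream stretch, chr10:15829139-15829288, minus strand: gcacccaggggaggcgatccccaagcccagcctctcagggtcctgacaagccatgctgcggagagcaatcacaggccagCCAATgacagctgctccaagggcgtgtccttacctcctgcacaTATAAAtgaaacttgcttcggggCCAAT
Alas2 upstream stretch, chrX:22895300-22895449, plus strand: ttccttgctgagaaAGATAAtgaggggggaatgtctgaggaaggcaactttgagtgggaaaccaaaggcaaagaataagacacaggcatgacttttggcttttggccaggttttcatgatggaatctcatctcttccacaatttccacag
The Hbb stretch held CACACCC starting 97 bases before the start site, 2 adjoining CCAAT motifs on opposite strands and ATAAAA at 36 bases. Both alpha genes held CCAAT at 71 and TATAAA at 28 bases before the start. Alas2 held AGATAA at 136 bases before it. In all 33469 RefSeq windows of 300 bases (250 before to 50 after a start), CACACCC occurred in 7.08%, AGATAA in 11.6%, CCAAT in 37.5%, TATAAA in 14.2% and ATAAAA in 20.5%. The Hba-a1 and Hba-a2 windows were identical at 288 of 300 positions (96.0%), with 144 of the 150 printed bases the same. The transcripts themselves were not compared here. How the authors' counting treated reads that match several genes is not known, so the split between similar globin genes is uncertain.

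Library totals ran from 56922779 to 88243188 estimated counts, and 6 lung epithelial genes, led by Sftpb and Cdh1, summed to 3138 to 4724 CPM in control, 2373 to 2710 CPM in hypoplastic and 2834 to 3308 CPM in treated libraries, so every library held lung RNA. The 9 red cell genes together took 0.3652% of the counts in hypoplastic library 2 (95% Wilson interval 0.3637 to 0.3667%, which covers counting error only) and 1.192% in control library 2 (1.189 to 1.195%). Their share was 0.752% ± 0.407 (SD, n = 3) in control, 0.492% ± 0.173 (SD, n = 3) in hypoplastic and 0.537% ± 0.133 (SD, n = 3) in treated lungs. The control lungs alone spanned nearly the full range, from 0.3888% in library 3 to 1.192% in library 2. In whole lungs, fewer red cells and less RNA per red cell cannot be told apart. Liver genes were close to absent: Alb, a defining one, was at 0 to 0.03567 CPM and Afp at 0 to 0.07134 CPM, and the 8 liver genes summed to 0.03265 to 0.2287 CPM except in control library 2, where Apoa1, at 5.654 CPM, brought the sum to 6.153 CPM.

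The beta globin gene Hbb (Gene ID 24440) had the highest count of the 9 genes in every library. Its level, as CPM (each library's counts brought to a common total, with TMM scaling), was 3690, 6875 and 2237 in control libraries 1 to 3, 2260, 1979 and 4002 in the hypoplastic and 2398, 4042 and 2172 in the treated libraries. Control library 2 stood above all others, and the remaining control values lay among those of the other groups. The alpha globin gene Hba-a1 (Gene ID 25632) was at 491.7, 899.7 and 202.4 CPM in control, 274.3, 297.1 and 506.5 CPM in hypoplastic and 255.3, 443.5 and 337.8 CPM in treated libraries. Its neighbour Hba-a2 (Gene ID 360504) was at 747.5, 1284 and 334.3 CPM, then 424.0, 458.1 and 811.3 CPM, then 435.7, 766.7 and 539.5 CPM in the same order. For both alpha genes the control group held the highest and the lowest of the 9 values.

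Alas2 (Gene ID 25748), which sets the pace of haem synthesis in red cells, was at 925.7, 1496 and 642.9 CPM in control, 523.0, 426.3 and 809.2 CPM in hypoplastic and 561.8, 814.3 and 419.1 CPM in treated libraries. The highest hypoplastic and treated values lay above the lowest control value, so the groups overlapped by 1 library each. Slc4a1 (Gene ID 24779) was at 711.5, 1362 and 340.1 CPM in control, 697.0, 410.4 and 954.1 CPM in hypoplastic and 905.1, 1046 and 597.8 CPM in treated libraries. Epb42 (Gene ID 362202), its partner at the membrane, was at 29.86, 47.87 and 15.50 CPM, then 33.06, 15.79 and 35.34 CPM, then 36.86, 43.22 and 23.33 CPM. Both membrane genes had their highest and lowest values in the control lungs, with the hypoplastic and treated values between.

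The regulators were counted far less often than the globin genes, without allowance for transcript length. Klf1 (Gene ID 304666) was at 18.60, 34.28 and 8.746 CPM in control, 21.06, 11.71 and 24.94 CPM in hypoplastic and 24.89, 24.74 and 16.71 CPM in treated libraries. Gata1 (Gene ID 25172) was at 13.24, 20.67 and 6.590 CPM, then 11.15, 8.180 and 19.73 CPM, then 14.48, 18.71 and 10.42 CPM. Hemgn (Gene ID 113882) was at 36.21, 80.97 and 22.22 CPM, then 42.80, 27.68 and 45.23 CPM, then 46.34, 50.66 and 38.61 CPM. All 9 genes were highest in control library 2, and 7 of the 9 were lowest in control library 3, the exceptions being Hbb (hypoplastic library 2) and Alas2 (treated library 3). Control library 2 also had the largest share of ribosomal and 7SL RNA (19.93%, against 14.07 to 18.29% elsewhere) and the lowest summed level of 5 leukocyte genes (93.36 CPM, against 115.6 to 173.8 CPM). Of these genes Ptprc, Laptm5 and Coro1a were lowest there, Cd48 (58.55 CPM) was not, and Cd52 (14.59 CPM) was second highest. The part of the ribosomal share and of the leukocyte genes in its red cell levels was not tested.

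**Figure D1:**
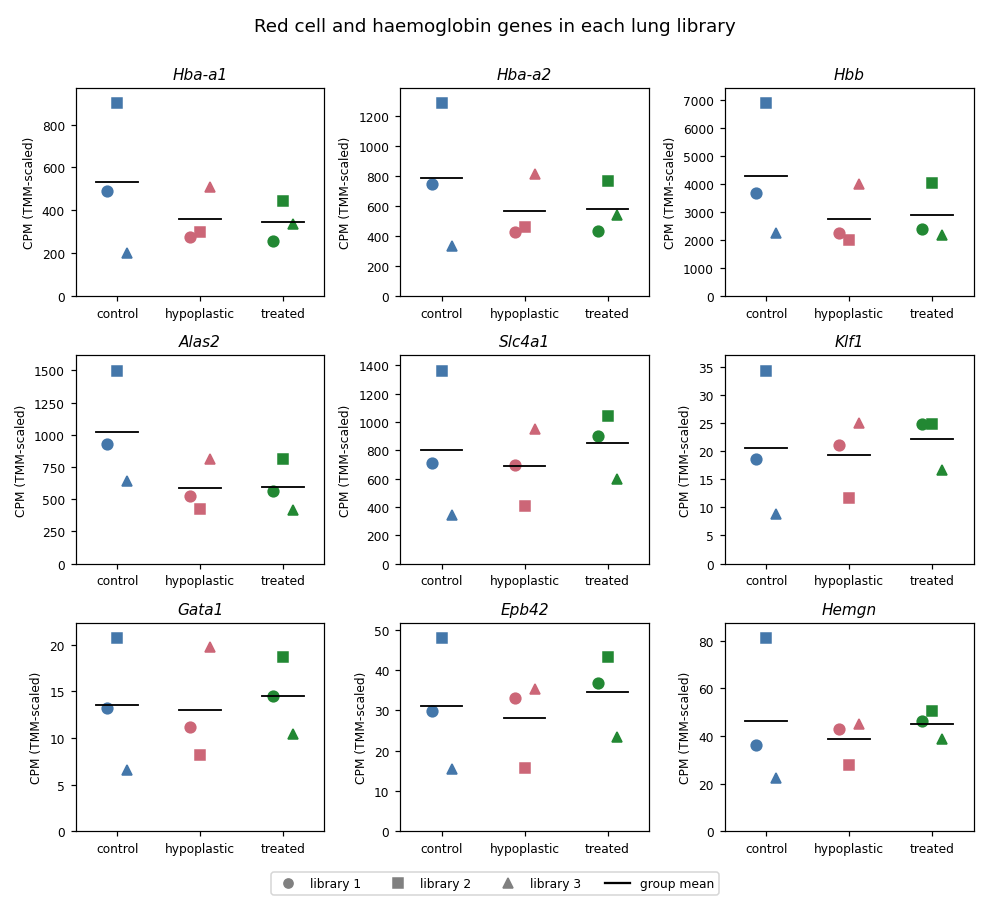
Level of each of the 9 genes (vertical axis, CPM of the TMM-scaled library, linear from 0) in the 9 libraries, by group; marker shape gives the library number and the bar the group mean. Control library 2 is the highest point in every panel, and the 3 groups overlap in all 9 panels.

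Whether lungs of the hypoplasia model held a different level of red cell RNA was asked first, by setting them against control lungs. edgeR's quasi-likelihood test called none of the 9 genes at an adjusted p under 0.05, where 0.00771% of the 12966 genes tested were called. DESeq2 called none of the 9 (1.6% of all genes). Of the 9, 1 (Alas2) passed an unadjusted p of 0.05, on the lower side, where 5.69% of all genes were on that side and 6.67% on the higher. The log2 fold changes of all 9 were negative, with a median of -0.27 beside 0.01 over all genes tested. The largest was that of Alas2, -0.80 (SE 0.35, edgeR adjusted p 0.401), followed by Hbb at -0.64 (SE 0.43), Hba-a1 at -0.56 (SE 0.46) and Hba-a2 at -0.48 (SE 0.44), with adjusted p from 0.569 to 0.681. Hemgn was at -0.27 (SE 0.40), Slc4a1 at -0.23 (SE 0.46), Epb42 at -0.15 (SE 0.42), Klf1 at -0.09 (SE 0.44) and Gata1 at -0.05 (SE 0.43). Lung epithelial genes were on the same side: 5 of 6 had an unadjusted p under 0.05 (none called by edgeR) and 4 did not overlap, with Sftpb at -0.84 (SE 0.24), and their part in the red cell values was not tested. No gene of the 9 separated the groups without overlap, which 9.05% of all genes did on the lower side and 7.68% on the higher. The shared sign depended on single libraries. Without control library 2 the median was 0.31, with Slc4a1 at 0.39, Klf1 at 0.49 and Gata1 at 0.39, while Hbb stayed at -0.11 and Alas2 at -0.42. Without hypoplastic library 2 the median was -0.08, with Gata1 at 0.20, Klf1 at 0.17, Epb42 at 0.14 and Slc4a1 at 0.04, and without hypoplastic library 1 Gata1 was at 0.05. The median was -0.60 without control library 3, -0.54 without hypoplastic library 3 and -0.41 without control library 1. Alas2 and Hbb were negative in all 6 of these omissions.

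The treated and untreated hypoplastic lungs were compared to see what the vesicles changed. edgeR called none of the 9 genes (0% of all genes called) and DESeq2 none (0.131%), and none had an unadjusted p under 0.05, where 2.0% of the genes tested were higher and 3.56% lower at that p. None of the 9 separated these groups either (5.07% of genes did on the higher side, 4.74% on the lower). The log2 fold changes lay between -0.06 (SE 0.46) for Hba-a1 and 0.31 (SE 0.46) for Slc4a1, with a median of 0.16 beside -0.01 over all genes, and edgeR adjusted p of 0.960 or more. The haemoglobin and haem synthesis genes were nearest to 0, with Hba-a2 at 0.04 (SE 0.44), Hbb at 0.06 (SE 0.43) and Alas2 at 0.03 (SE 0.35). Epb42 was at 0.30 (SE 0.42), Hemgn at 0.23 (SE 0.39), Klf1 at 0.20 (SE 0.44) and Gata1 at 0.16 (SE 0.43). The median was -0.08 without hypoplastic library 2, -0.06 without treated library 2 and 0.06 without hypoplastic library 1. It was 0.43 without hypoplastic library 3 and 0.33 without treated library 3.

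In treated against control lungs edgeR again called none of the 9 (0% of all genes) and DESeq2 none (0.108%), and none of the 9 reached an unadjusted p under 0.05 (1.67% of all genes higher, 2.5% lower). None of the 9 was without overlap (4.37% of genes higher, 5.02% lower). Alas2 was at -0.77 (SE 0.35), Hba-a1 at -0.62 (SE 0.46), Hbb at -0.57 (SE 0.43) and Hba-a2 at -0.44 (SE 0.44), all with an edgeR adjusted p of 0.998. The other 5 genes lay between -0.04 for Hemgn and 0.15 for Epb42. The median was -0.04. It was 0.56 without control library 2 and 0.06 without treated library 3, and -0.37 without control library 3, where Slc4a1, Klf1, Gata1 and Epb42 were negative (-0.29 to -0.17). It was -0.17 without control library 1 and -0.13 without treated library 2. Each pair of comparisons shares the libraries of 1 group, so these values are not independent of each other.

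**Figure D2:**
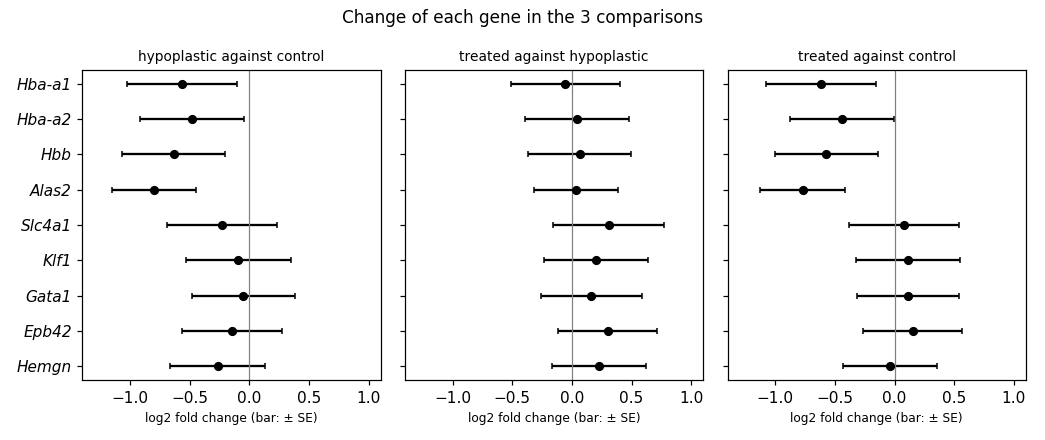
Log2 fold change of each of the 9 genes (horizontal axis) in the 3 comparisons, with bars of ± 1 SE from edgeR's fit. Against control, Alas2 and the 3 globin genes sit furthest to the left, at -0.80 to -0.48 in hypoplastic lungs, while Klf1 and Gata1 are near 0.

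The 9 genes varied together from lung to lung, and 5 of them formed a tight block. Over the 9 libraries Pearson's r of log2 CPM ran from 0.583 to 0.993 in the 36 pairs of genes, with a median of 0.806. Within the block of Slc4a1, Klf1, Gata1, Epb42 and Hemgn it was 0.891 to 0.987, and Slc4a1 and Klf1 were the closest pair there. Hba-a1 and Hba-a2 had an r of 0.993, and Hbb and Alas2 one of 0.955. The alpha genes were no closer to Alas2 (0.811 and 0.815) than Hba-a2 or Hbb was to Gata1 (0.840 and 0.824), so the globin genes and Alas2 formed no block of their own. Alas2 and Klf1 had the lowest r. These correlations are given as a description, and all points of a library share its depth and scaling. After subtraction of the group means the range was 0.753 to 0.996, with a median of 0.906.

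**Figure D3:**
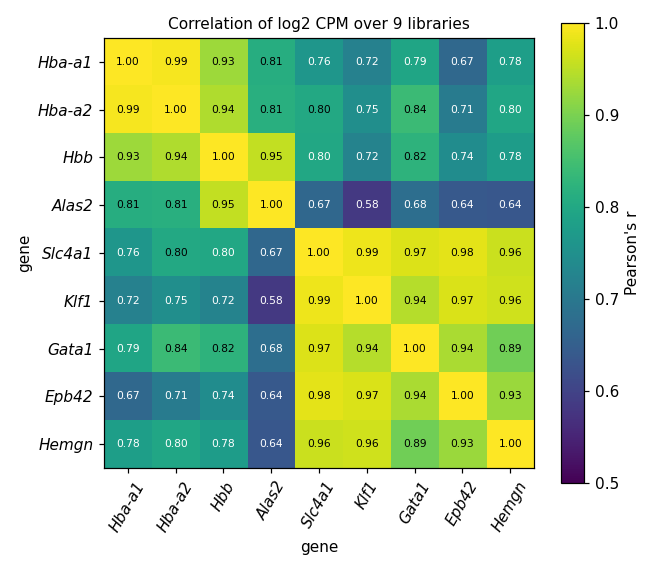
Pearson's r of log2 CPM over the 9 libraries for each pair of the 9 genes (both axes list the genes, colour and number give r). A block of high values from Slc4a1 to Hemgn (0.89 to 0.99) stands beside lower values, down to 0.58, between that block and Alas2.

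The relation of each gene with Alas2 was tested over the 9 libraries by exact permutation, two-sided, with Benjamini-Hochberg adjustment over the 8 relations. Hbb had an r of 0.955 (exact permutation p 0.000369, adjusted 0.00295) and a Spearman rho of 0.883 (exact p 0.00308, adjusted 0.0246). Hba-a1 and Hba-a2 had r of 0.811 and 0.815 (exact p 0.00844 and 0.00739, adjusted 0.0225 for both), but rho of 0.617 (exact p 0.0857, adjusted 0.137). For the other 5 genes r was 0.583 to 0.680 and rho 0.467 to 0.700, with exact permutation adjusted p of 0.0765 to 0.1 for r and 0.134 to 0.213 for rho. Without the 2 libraries farthest from the median of Alas2, control library 2 and treated library 3, r was 0.913 for Hbb, 0.708 and 0.741 for the alpha genes, and 0.334 to 0.585 for the other 5. These tests took no account of group. After subtraction of the group means the order was another: r with Alas2 was 0.980 for Hbb, 0.972 for Gata1, 0.943 for Slc4a1, 0.910 for Epb42 and 0.891 for Klf1, and lower, at 0.876, 0.864 and 0.846, for Hba-a2, Hemgn and Hba-a1.

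To compare genes free of library scaling, each gene's count was divided by that of Slc4a1 in the same library; this measure was chosen after the values were seen and is a description without a test. For Alas2 the ratio was 1.3, 1.1 and 1.89 in control, 0.750, 1.04 and 0.848 in hypoplastic and 0.621, 0.779 and 0.701 in treated libraries. Every control lung thus had more Alas2 than Slc4a1 counts, and each value of the other groups was below the lowest control value. The mean log2 ratio was 0.48 ± 0.40 (SD, n = 3) in control, -0.20 ± 0.24 (SD, n = 3) in hypoplastic and -0.52 ± 0.16 (SD, n = 3) in treated lungs. For Hbb the ratio was 5.19, 5.05 and 6.58 in control, 3.24, 4.82 and 4.19 in hypoplastic and 2.65, 3.86 and 3.63 in treated libraries, again without overlap with control.

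The alpha genes had lower ratios in treated than in control lungs without overlap, and overlapped between hypoplastic and control lungs. For Hba-a1 the ratio was 0.691, 0.661 and 0.595 in control, 0.394, 0.724 and 0.531 in hypoplastic and 0.282, 0.424 and 0.565 in treated libraries. The ratios of Klf1, Gata1, Epb42 and Hemgn to Slc4a1 differed little between groups, with differences of mean log2 ratio from control of -0.10 to 0.14. Klf1 was the steadiest, at 0.0252 to 0.0261 in control, 0.0261 to 0.0302 in hypoplastic and 0.0237 to 0.0280 in treated libraries. For Klf1 the hypoplastic values lay above the control values without overlap, but the nearest of each were equal to 3 digits.

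In all, 2 of the 8 ratios were lower in hypoplastic than in control lungs without overlap and 1 was higher, and 4 were lower in treated than in control lungs. Over the other 12965 tested genes, the ratio to Slc4a1 was lower without overlap in 0.332% and higher in 0.879% for hypoplastic against control. For treated against control it was lower in 1.33% and higher in 0.285%. These genes are of all kinds and were not chosen for red cells. Slc4a1 itself ran from 340.1 to 1362 CPM in the control lungs, so the ratio of a gene that does not vary with it seldom separates. The 8 genes vary with Slc4a1, so these shares are not the rate to be set against theirs. Between treated and hypoplastic lungs none of the 8 ratios separated the groups (2.27% of all genes lower, 0.0463% higher). Klf1, Gata1, Epb42 and Hemgn vary closely with Slc4a1 and each other (r 0.891 to 0.987), so as reference genes they are not separate checks. With each in place of Slc4a1, Alas2 remained lower than control without overlap under all 5 reference genes in both groups. The differences were -0.81 to -0.67 (hypoplastic) and -1.03 to -0.90 (treated) on the log2 scale. Hbb was lower than control without overlap under all 5 in treated and under 3 of 5 in hypoplastic lungs. In treated lungs this held for Hba-a1 under only 3 of 5 and for Hba-a2 under only 2 of 5. In hypoplastic lungs it held for neither alpha gene under any reference gene. When any 1 of the 6 libraries compared was left out, the mean log2 ratio of Alas2 to Slc4a1 stayed below control. The differences were -0.85 to -0.46 in hypoplastic and -1.17 to -0.78 in treated lungs. Groups that are already separate cannot come to overlap when a library is left out, so only the size of the difference could change.

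**Figure D4:**
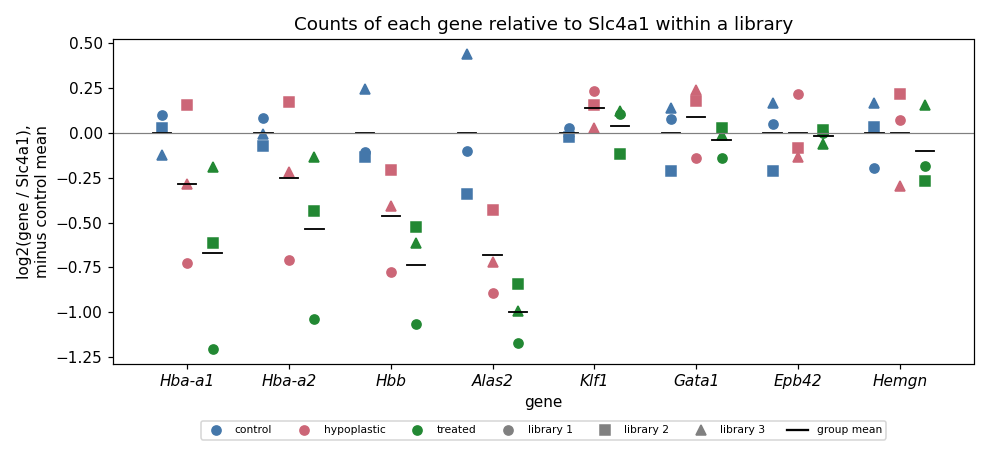
Log2 ratio of each gene's count to that of Slc4a1 in the same library (vertical axis), less the mean of the control libraries, for 8 genes; colour gives the group, marker shape the library and bars the group means. The hypoplastic and treated points of Hbb and Alas2 lie below all control points, while Gata1, Epb42 and Hemgn scatter around 0 in all groups.

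The other globin genes divided into adult and embryonic types. The beta chain gene Hbb-bs was at 967.1 CPM ± 575.1 (SD, n = 3) in control, 718.5 CPM ± 306.5 (SD, n = 3) in hypoplastic and 727.7 CPM ± 217.2 (SD, n = 3) in treated lungs, and Hbb-b1 at 426.3 CPM ± 253.8, 246.2 CPM ± 103.3 and 275.0 CPM ± 99.29 (SD, n = 3 each). Their log2 fold changes in hypoplastic against control were -0.43 (SE 0.44) and -0.79 (SE 0.45), with edgeR adjusted p of 0.725 and 0.497. The ratio of Hbb-b1 to Slc4a1 was 0.510 to 0.558 in control, 0.272 to 0.448 in hypoplastic and 0.226 to 0.387 in treated libraries. The embryonic genes were barely detected: Hbe1 was at 0.01356 to 0.1086 CPM, Hbg1 at 0 to 0.06128 CPM and Hbe2 at 0 to 0.1267 CPM. Hbz, the embryonic zeta chain gene, was at 0.4902, 0.4280 and 0.02712 CPM in control, 0.5794, 0.9633 and 0.7239 CPM in hypoplastic and 0.2896, 1.172 and 0.2496 CPM in treated libraries. The log2 fold change of Hbz in hypoplastic against control was 1.31 (SE 0.78, edgeR adjusted p 0.515), without overlap. The alpha-like Hba-a3 stayed at 0.3390 to 1.430 CPM.

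Of the 10 further genes of haem synthesis and its transport, edgeR called none in any comparison, and none had an unadjusted p under 0.05. The median log2 fold changes of the list, in the order of comparisons above, were -0.12, 0.23 and 0.16. Fech, which inserts iron to make haem, was at 229.9 CPM ± 119.5 (SD, n = 3) in control, 152.0 CPM ± 42.52 (SD, n = 3) in hypoplastic and 186.5 CPM ± 43.49 (SD, n = 3) in treated lungs. For Fech the first comparison gave -0.60 (log2, SE 0.36) with an edgeR adjusted p of 0.515. Its ratio to Slc4a1 was 0.265 to 0.377 in control, 0.192 to 0.252 in hypoplastic and 0.211 to 0.230 in treated libraries, without overlap with control. The other genes of smallest p in the list, Uros (-0.26, SE 0.20) and Alad (-0.16, SE 0.14), act in the middle and at the second step of the pathway and had edgeR adjusted p of 0.633 and 0.668.

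Of 12 measured genes of the red cell membrane and skeleton none was called, and their medians were 0.02, 0.18 and 0.20 in the 3 comparisons. Sptb, the beta spectrin gene, was at 132.6 CPM ± 72.33 (SD, n = 3) in control, 106.5 CPM ± 9.472 (SD, n = 3) in hypoplastic and 171.4 CPM ± 45.07 (SD, n = 3) in treated lungs. The treated libraries lay above the hypoplastic ones without overlap (0.69 on the log2 scale, SE 0.34, edgeR adjusted p 0.901). Dmtn (-0.29, SE 0.20) and Aqp1 (0.34, SE 0.55) had edgeR adjusted p of 0.591 and 0.833 in hypoplastic against control, and Aqp1 is also a gene of lung endothelium. Of 9 erythroid transcription factor and cofactor genes none was called either, with medians of 0.06, 0.11 and 0.10. Their smallest p in hypoplastic against control were those of Ldb1 (-0.12, SE 0.10), Cbfa2t3 (-0.19, SE 0.16) and Lyl1 (0.41, SE 0.37), with edgeR adjusted p of 0.647 to 0.678. In treated against control, Zfpm1, the GATA1 cofactor FOG1, was on the higher side at an unadjusted p under 0.05 (edgeR adjusted p 0.998).

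Among 13 tested genes of erythroid signalling, enzymes and maturation, none was called, with medians of -0.01, 0.11 and 0.19. Those with an unadjusted p under 0.05 were Fn3k on the higher side (log2 fold change 1.11, SE 0.49, edgeR adjusted p 0.398) and Bnip3l on the lower (-0.47, SE 0.21, adjusted p 0.401) in hypoplastic against control, and Cd36 on the lower side in treated against control (-0.995, SE 0.31, adjusted p 0.998). The level of Fn3k was low, at 0.2298 to 1.194 CPM over the 9 libraries. Bnip3l encodes the receptor by which maturing red cells clear mitochondria, and it was at 227.6 CPM ± 77.09 (SD, n = 3) in control, 164.1 CPM ± 18.85 (SD, n = 3) in hypoplastic and 176.5 CPM ± 18.35 (SD, n = 3) in treated lungs. Cd36 is also a gene of capillary endothelium and macrophages.

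**Figure D5:**
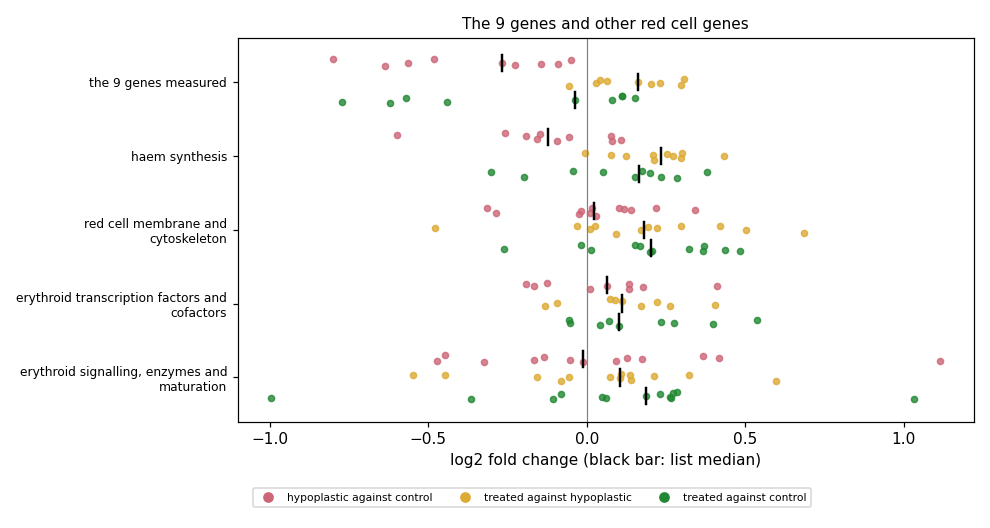
Log2 fold change (horizontal axis) of the 9 genes and of 4 lists of other red cell genes, 1 point per gene, in the 3 comparisons by colour; black bars are list medians and vertical scatter has no meaning. The medians lie between -0.27 and 0.23, and Alas2 and the globin genes form the left tail of the top row.

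The genes most like the 9 across libraries, by Pearson's r of log2 CPM with their mean standardised level among 11333 other genes with a mean of at least 1 CPM, were Ncoa4 (0.981), Glrx5 (0.980), Ubac1 (0.979), Tent5c (0.976), Atosb (0.973), Slc22a4 (0.972), Gtf3c2 (0.971) and Hbb-bs (0.971). Ncoa4 encodes the receptor that sends ferritin to the lysosome and Glrx5 a mitochondrial glutaredoxin of iron-sulfur cluster assembly. Ncoa4 was at 854.0 CPM ± 439.1 (SD, n = 3) in control, 632.6 CPM ± 131.1 (SD, n = 3) in hypoplastic and 722.4 CPM ± 122.6 (SD, n = 3) in treated lungs. Among the 50 most alike genes, 5 came from the lists of other red cell genes: Hbb-bs, Fech, Car2, Abcb10 and Hbb-b1. Those lists are a small part of the 11333 genes. They held 4 globin, 10 haem synthesis, 12 membrane, 9 transcription factor and 13 signalling genes tested, not all with a mean of 1 CPM.

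GATA1 is also made by megakaryocytes and mast cells, so their markers were measured beside it. The 8 megakaryocyte and platelet genes found summed to 28.48 to 43.05 CPM in control, 32.92 to 53.28 CPM in hypoplastic and 33.92 to 45.86 CPM in treated libraries, with Itgb3 and Pf4 the most abundant, and Itgb3 made up most of each sum. In control library 2, where Gata1 was highest, Itgb3 was lowest (17.42 CPM) but Pf4 was the second highest of all libraries (6.189 CPM). The platelet receptor genes Gp5 (log2 fold change -1.53, SE 0.56, edgeR adjusted p 0.354) and Gp1bb (-1.28, SE 0.51, adjusted p 0.370), named after their values were seen, had an unadjusted p under 0.05 and no overlap, on the lower side, in hypoplastic against control, where Itgb3 was at 0.33 (SE 0.27). Of all genes, 9.05% were lower there without overlap. Levels were low, at 0.1469 to 1.459 CPM for Gp5 and 0.5225 to 2.63 CPM for Gp1bb. In treated against hypoplastic lungs Gp5 was at 1.66 (SE 0.54, edgeR adjusted p 0.859), without overlap, and Gp1bb at 1.39 (SE 0.50, adjusted p 0.895), with overlap. The 10 mast cell genes summed to 147.2 to 181.4, 132.9 to 145.9 and 138.5 to 166.7 CPM. Hdc and Kit were the most abundant and made up most of each sum. Fcer1a was at 0 to 0.07660 CPM and Mcpt4 at 0 to 0.07174 CPM. Cpa3 (0.3567 to 6.171 CPM), Mcpt1 (0.8739 to 5.733 CPM) and Tpsab1 (0.2765 to 4.023 CPM) were found in every library. So were Cma1, Tpsb2 and Ms4a2, with lower peaks. In control library 2, Cpa3 (0.3567 CPM), Mcpt1 (0.8739 CPM) and Tpsb2 (0.03567 CPM) were at their lowest, while Hdc was the second highest of all libraries (86.98 CPM). The part of megakaryocytes and mast cells in the Gata1 level was not tested. Neutrophil genes, led by S100a8 and S100a9, summed to 6.766 to 13.09 CPM in control, 54.04 to 95.54 CPM in hypoplastic and 18.89 to 79.72 CPM in treated libraries, and 5 of their 6 tested genes were higher in hypoplastic than in control lungs at an unadjusted p under 0.05 (none called by edgeR). Heart muscle genes, led by Actc1 and Myh6, summed to 256.0 and 122.5 CPM in hypoplastic libraries 1 and 2 and to 4.072 to 19.38 CPM elsewhere. Hypoplastic library 2 had the lowest red cell share of all libraries. The part of these cells in the red cell values was not tested. Summed endothelial genes, led by Pecam1 and Tie1, were at 774.3 to 1081 CPM in all libraries.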

How the data were processed

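The authors deposited 1 table of estimated counts per gene, with NCBI Gene IDs and 1 column per library; 19.5% of its nonzero values were whole as deposited (no tolerance). The submitters' processing notes name the build rn7 and DESeq2, with no role; the sources used here name no aligner, counting program or annotation. Symbols came from a RefSeq table of GRCr8, which matched 17314 IDs (99.1%).

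The tests had been planned for counts, and the estimated counts were rounded. Comparisons rested on the quasi-likelihood test of edgeR (edgeR 4.0.16, limma 3.58.1 and DESeq2 1.42.0 in R 4.3.3; Python 3.11.15) with TMM, filterByExpr by group, all 9 libraries in 1 fit and Benjamini-Hochberg adjustment over all 12966 genes within a comparison. It was tried on simulated counts with less spread between libraries than these data, whose common biological coefficient of variation was 0.253. That trial therefore does not show its power here. SE is the absolute log2 fold change divided by the square root of F. Library totals ran from 56922779 to 88243188. Ratios within a library used a pseudocount of 0.5 counts.

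The 10 genes and the lists were chosen with earlier results of these data known. Named genes were the 10, the listed globin genes, per other red cell list any called gene or else the 3 of smallest p in hypoplastic against control, the 2 most abundant per marker list, and the 8 most alike; genes given for an unadjusted p or for the ratio to Slc4a1 were added after their values were seen. The alternatives were other scalings, filters and tools, the 6 libraries compared alone, a replicate block and the omission of each library; those of the ratio to Slc4a1 were chosen after seeing the data.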

Additional observations from a re-analysis of the deposited data

How the results depend on the processing

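No alternative scaling, filter, tool, set of libraries or omission of 1 library called any of the 9 genes in any comparison, and the edgeR, DESeq2 or limma adjusted p of Alas2 in hypoplastic against control ranged from 0.233 to 0.885. Over all genes in that comparison edgeR called 1 and DESeq2 207; in the other 2 comparisons DESeq2 called 17 and 14, and edgeR 0. Signs were less stable, and the cause was not tested. With limma voom, Klf1 (0.0795) and Gata1 (0.0249) were positive in hypoplastic against control and Hemgn (0.177) in treated against control. No pairing by replicate number was seen in deviations from group means over all genes tested: same-numbered libraries had correlations of -0.391 to 0.336 (median 0.0206, 3 of 9 above 0.1), and 0 of 9 libraries correlated best with their own number. Whether the numbers mark a litter or batch cannot be told from these correlations. With a replicate block, 2, 0 and 0 genes of all were called and 0 of the 9; Klf1 (0.0626), Gata1 (0.0599) and Hemgn (0.0583) turned positive in the same comparisons, and Hba-a2 (-0.0309), Hbb (-0.0406) and Alas2 (-0.0555) negative in treated against hypoplastic. With each library left out in turn, the log2 fold changes in hypoplastic against control ranged as follows: Hba-a1 -0.954 to 0.0491, Hba-a2 -0.848 to 0.0605, Hbb -1.01 to -0.11, Alas2 -1.11 to -0.421, Slc4a1 -0.593 to 0.385, Klf1 -0.458 to 0.493, Gata1 -0.478 to 0.392, Epb42 -0.47 to 0.307, Hemgn -0.603 to 0.4, and their median -0.603 to 0.307. In treated against hypoplastic the ranges were Hba-a1 -0.276 to 0.276, Hba-a2 -0.21 to 0.398, Hbb -0.264 to 0.439, Alas2 -0.256 to 0.336, Slc4a1 0.0419 to 0.619, Klf1 -0.055 to 0.434, Gata1 -0.0826 to 0.592, Epb42 0.0126 to 0.514, Hemgn 0.0393 to 0.361, and the median -0.0826 to 0.434. In treated against control the ranges were Hba-a1 -1.01 to -0.00612, Hba-a2 -0.806 to 0.103, Hbb -0.9 to -0.0457, Alas2 -1.06 to -0.39, Slc4a1 -0.286 to 0.693, Klf1 -0.254 to 0.697, Gata1 -0.217 to 0.557, Epb42 -0.17 to 0.606, Hemgn -0.372 to 0.631, and the median -0.372 to 0.557. Counted without the 3 globin genes, the share of the library was 0.1938%, 0.1339% and 0.1571% in control, hypoplastic and treated lungs, by construction smaller. The median r with Alas2 was 0.541 without the 2 libraries farthest from its median. With 3 libraries a group and this spread, large changes could go uncalled as well as small ones. The neutrophil gene S100a9, at a log2 fold change of 3.32 in hypoplastic against control, had an edgeR adjusted p of 0.185. That none of the 9 genes was called therefore does not show that they were unchanged.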

Other observations

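The balance of alpha to beta chain counts (Hba-a1, Hba-a2 and Hba-a3 over Hbb, Hbb-b1 and Hbb-bs) was 0.225 ± 0.0324 (SD, n = 3) in control, 0.252 ± 0.0271 (SD, n = 3) in hypoplastic and 0.244 ± 0.0422 (SD, n = 3) in treated lungs, and the libraries of the 3 groups overlapped. Hbb took 56.97% ± 1.67 (SD, n = 3) of the counts of the 9 genes in control, 54.2% ± 1.41 (SD, n = 3) in hypoplastic and 53.1% ± 2.36 (SD, n = 3) in treated lungs.

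Some other red cell genes went the opposite way to Alas2 when set against Slc4a1 within a library; they are named after their values were seen. The ratio of Nfe2, a transcription factor of red cell and platelet precursors, to Slc4a1 was 0.0263 to 0.0311 in control, 0.0321 to 0.0464 in hypoplastic and 0.0333 to 0.0369 in treated libraries. The ratio of Rhd, which encodes a Rhesus membrane protein, was 0.0237 to 0.0406 in control and 0.0409 to 0.0531 in hypoplastic libraries, while the treated libraries, at 0.0332 to 0.0501, overlapped control. In hypoplastic against control the ratio was higher without overlap for 2 of 12 membrane genes and 1 of 9 transcription factors and cofactors. It was also higher for 2 of 13 signalling, enzyme and maturation genes and for 0 of 10 haem synthesis genes. It was lower for 1 gene of these lists, Fech. Over all other genes tested it was higher in 0.879% and lower in 0.332%, but most of those genes do not vary with Slc4a1. Whether these counts exceed what 3 libraries a group would give by themselves was not tested.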
